A study of Mus musculus with 8 samples.

Results

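AP-1 and immediate early genes were followed in cultured mouse bone marrow mesenchymal stem cells (MSCs) from wild type (WT) and *Dnmt3l* knockout (KO) mice, before and after osteogenic induction. The 10 genes are *Fos*, *Fosb*, *Fosl1* and *Fosl2* of the Fos family, *Jun*, *Junb* and *Jund* of the Jun family, and *Egr1*, *Atf3* and *Ier3*. They were taken by symbol from an expression table of 24346 genes, and all 10 were above 0 in every library and passed the expression minimum. Values are in RPKM, reads scaled by the length of the transcript and the depth of the library, so that levels can be compared between genes as well as between libraries.

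There are 8 RNA libraries in 4 groups of 2, one group for each genotype in each state, and the states are called undifferentiated and differentiating. All cells were of C57BL/6 background and at passage 4, from adult female mice; KO mice carried the tmEnls mutant allele of *Dnmt3l* on both chromosomes, and WT mice were their littermates from crosses of heterozygotes. Undifferentiated cells grew in αMEM with 20% fetal bovine serum, and differentiating cells were kept for 3 days in αMEM with 10% serum, 0.1 µM dexamethasone, 10 mM β-glycerophosphate and 50 µM ascorbic acid 2-phosphate. The differentiating groups therefore differ from the undifferentiated groups in serum as well as in the 3 added compounds. Induction began once the cells were confluent, and the density of undifferentiated cells at harvest is not given. Density and time in culture may thus differ as well, and none of these can be told apart. Per the study's methods, cells from several mice of a genotype were mixed and depleted of CD11b and CD45 positive cells. Whether the pair of libraries in a group stands for separate cultures is not stated in the labels, so p-values measure only the spread between these libraries, which may be technical.

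AP-1 is a transcription factor made of a Jun protein paired with a Fos protein, another Jun protein or a member of the ATF family. Immediate early genes are switched on within minutes by serum, growth factors or stress, from signals that reach pre-existing factors through MAP kinases, and most of their RNAs are short-lived. In bone, FOSL1, FOSL2 and JUNB take part in matrix formation by osteoblasts, while FOS is needed for osteoclasts, the bone-resorbing cells of the hematopoietic lineage. The time between the last change of medium and lysis of the cells is not given in the sources used here.

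The promoters of these genes are well known for binding sites of the factors that switch them on, and 3 are shown because the genes they belong to had changes past 2-fold or the sites best known for this class. The reference promoter sequences came from RefSeq (GRCm38.p6, the assembly named mm10), in which 8 of the 10 genes have an entry (all but *Fosl1* and *Egr1*). Each sequence is the 120 bases before the start of transcription of the RefSeq entry, written 5′ to 3′ on the strand of the gene. Capitals mark the motifs that were searched, on both strands. TGACG is the core of a cAMP response element, TGACATCA the AP-1 site of the *Jun* promoter, TATAA the element that binds the general transcription machinery, CCAAT the element bound by NF-Y, and GGGCGG a GC box bound by SP factors. The start of the entry lies within 30 bases of the start of the gene in GENCODE for *Fos*, *Fosb*, *Jun*, *Junb* and *Ier3*. The *Atf3* and *Fosl2* windows lie inside the gene, at internal starts, and that of *Jund* ends at a start 1210 bases before the gene.
Fos, chr12:85473770-85473889, plus strand: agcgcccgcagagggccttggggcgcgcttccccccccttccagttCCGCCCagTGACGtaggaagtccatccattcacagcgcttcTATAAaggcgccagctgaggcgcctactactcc
Jun, chr4:95052223-95052342, minus strand: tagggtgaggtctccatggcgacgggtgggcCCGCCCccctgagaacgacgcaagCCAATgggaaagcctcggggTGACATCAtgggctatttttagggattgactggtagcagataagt
Atf3, chr1:191183334-191183453, minus strand: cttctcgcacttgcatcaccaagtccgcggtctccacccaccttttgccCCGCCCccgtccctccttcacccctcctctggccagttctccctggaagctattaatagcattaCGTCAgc

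In the *Fos* window TGACG spans positions -66 to -62 from the start and TATAA positions -33 to -29. The *Jun* window holds TGACATCA from -45 to -38 and CCAAT from -65 to -61. TGACG was present, on one strand or the other, in 4 of the 8 windows (*Fos*, *Fosb*, *Junb* and *Atf3*) and in 11.7% of all 32851 RefSeq windows of the same length. TGACATCA was found in 1 of the 8, that of *Jun*, and in 2.1% of all windows. TATAA was in 2 of 8 (*Fos* and *Ier3*) against 11.8%, CCAAT in 2 of 8 (*Jun* and *Junb*) against 21.3%, and GGGCGG in 6 of 8 against 26.5%. The CArG box, the site of serum response factor, was in 0 of the 8 windows and in 0.749% of all. Bases further upstream than 120 were not searched and *Egr1* has no window, so this count cannot show whether these promoters lack the site. These matches describe the letters of the windows and say nothing about binding in these cells.

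RPKM values carry no read number, but the steps between low values allow an estimate of depth, between 48400000 and 67100000 scaled reads per library. *Fosb* rested on an estimated 20.9 to 76.0 reads per library, *Atf3* on 47.0 to 225 and *Fosl1* on 68.3 to 232, whereas *Fos* rested on 325 to 2390, *Egr1* on 449 to 2620, and the other genes on at least 1030 reads. *Dnmt3l*, the targeted gene, stood at 1.56 and 1.09 RPKM in undifferentiated and at 0.845 and 0.830 RPKM in differentiating WT libraries, and is listed at 0 in all 4 KO libraries. Per the study, its reads in WT MSCs covered only the later exons, and the canonical protein could not be detected in MSCs. The 8 markers of MSCs summed to between 1481 and 3334 RPKM in the libraries, and the 4 endothelial markers to at most 4.52 RPKM. The 7 osteoblast markers summed to 1225 to 1357 RPKM in undifferentiated and 2097 to 2320 RPKM in differentiating WT libraries, and to 1513 to 1587 and 1169 to 1238 RPKM in the corresponding KO libraries. Most of the sum was *Col1a1*, *Spp1* and *Ibsp*, and the genes did not move as one. In KO against WT 1 of the 7 was higher (*Col1a1*) and 3 were lower before induction, and all 7 were lower after it. With induction 2 rose (*Ibsp* and *Spp1*) and 2 fell (*Alpl* and *Sp7*) in WT, and 1 rose and 5 fell in KO MSCs. Of all tested genes, 32.2% changed between the genotypes before and 40.7% after induction, and 64.4% changed with induction in WT and 72.9% in KO MSCs. Expression was measured in bulk, so that fewer cells of a type and less RNA per cell cannot be told apart.

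The 10 genes covered a wide range of levels. In undifferentiated WT MSCs the order was *Ier3*, *Junb*, *Fosl2*, *Jund*, *Jun*, *Fos*, *Egr1*, *Atf3*, *Fosl1* and *Fosb*, from 107 RPKM down to 0.145 RPKM in the group means. *Jun* (13.6 and 14.6 RPKM) and *Fos* (13.3 and 14.5 RPKM) overlapped there, and no other neighbours in the order overlapped. In differentiating WT MSCs *Ier3* moved from the first to the fourth place, below *Junb*, *Fosl2* and *Jund*. In undifferentiated KO MSCs *Fosl1* stood above *Egr1*, which it did in no other group. Outside undifferentiated WT MSCs, neighbours did not overlap in any group, although with 2 libraries each the ranges are narrow.

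**Figure D1:**
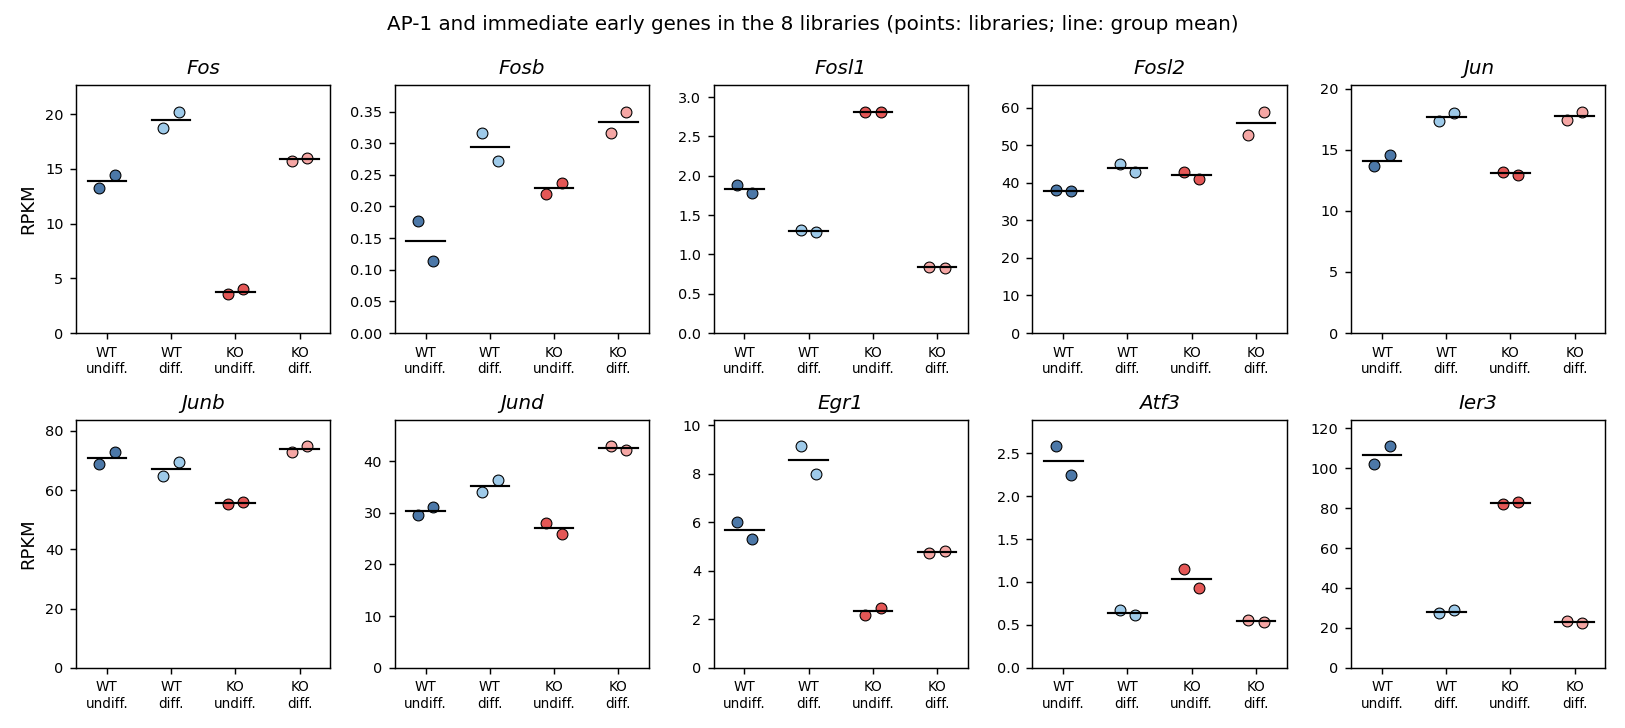
RPKM of the 10 genes in each library, 1 panel per gene with its own axis from 0; points are libraries and lines are the means of the 2 libraries of a group (WT in blue, *Dnmt3l* KO in red, differentiating in the lighter shade). *Fos* and *Egr1* are lowest in undifferentiated KO libraries, *Fosl1* is highest there, and *Atf3* and *Ier3* are highest in undifferentiated WT libraries.

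*Fos* (chromosome 12 of mm10, 85473890 to 85477273, plus strand), the founding member of its family and the classical serum-induced gene, gave the largest genotype difference of the 10. Before induction it measured 13.3 and 14.5 RPKM in the WT libraries and 3.53 and 4.04 RPKM in the KO libraries. Both KO libraries lay far below both WT libraries, at 0.278 of the WT level on the scale used for the test, log2(RPKM + 0.1). The difference was -1.85 on the log2 scale (adjusted p = 0.000162, with a standard error of 0.08; limma with Benjamini-Hochberg adjustment over 15342 genes, as for all adjusted p-values given here).

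After induction *Fos* stood at 18.7 and 20.2 RPKM in WT and at 15.7 and 16.0 RPKM in KO libraries. The groups did not overlap, but they lay much closer together than before induction. KO MSCs were lower, by -0.29 on the log2 scale (adjusted p = 0.0291), and this call was lost when any 1 of the 4 differentiating libraries was left out (adjusted p from 0.0571 to 0.152). *Fos* rose with induction in both genotypes, by 0.49 on the log2 scale in WT (adjusted p = 0.00223) and by 2.04 in KO MSCs (adjusted p = 3.44e-06). The interaction, the change of the genotype difference from the undifferentiated to the differentiating state, was 1.56 (standard error 0.11, adjusted p = 0.000673).

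*Fosl1* (chromosome 19, 5447547 to 5455946, plus strand), which codes for FRA1, had its highest levels where *Fos* had its lowest. Its levels were 1.88 and 1.78 RPKM in WT before induction, 2.82 and 2.80 RPKM in KO before induction, 1.31 and 1.28 RPKM in WT after it, and 0.846 and 0.833 RPKM in KO libraries after it. The 4 groups were all apart from each other, with undifferentiated KO on top and differentiating KO at the bottom. *Fosl1* was higher in KO than in WT before induction (log2 fold change 0.59, adjusted p = 0.0018) and lower after it (-0.57, adjusted p = 0.00165). It fell with induction by 0.47 in WT (adjusted p = 0.000865) and by 1.63 in KO MSCs (adjusted p = 3.07e-06), and the interaction was -1.16 (standard error 0.09, adjusted p = 0.000739). The gene overlaps *Ccdc85b* on the opposite strand, and the alignment used strand.

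*Fosl2* (chromosome 5, 32135801 to 32157842, plus strand), which codes for FRA2, was the most abundant Fos family RNA in every library. It measured 38.0 and 37.9 RPKM in WT before induction, 42.9 and 41.1 RPKM in KO before induction, 45.0 and 43.0 RPKM in WT after it, and 52.7 and 59.0 RPKM in KO libraries after it. Differentiating KO libraries were the highest. *Fosl2* rose with induction in WT (0.21, adjusted p = 0.0192) and in KO MSCs (0.41, adjusted p = 0.000933), and was higher in KO than in WT after induction (0.34, adjusted p = 0.00681). In undifferentiated MSCs the difference of 0.15 did not pass the test (adjusted p = 0.107). It passed when only the 4 undifferentiated libraries were fitted (adjusted p = 0.0359) or without either differentiating KO library (0.0308 and 0.0309).

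Both the difference after induction and the rise in WT were close to the limit. The difference after induction was lost without the second differentiating WT library (adjusted p = 0.0504) and when only the 4 differentiating libraries were fitted (0.0546). The rise in WT was lost without the first differentiating WT library (adjusted p = 0.103), without either undifferentiated WT library (0.0733 and 0.0789), or with each library centred on its median (0.137). The interaction of 0.20 did not pass (adjusted p = 0.111), but passed without the first differentiating KO library (0.28, adjusted p = 0.0175).

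*Fosb* (chromosome 7, 19302696 to 19310051, minus strand), a further Fos protein induced by stimulation, had the lowest levels of the 10. Its 8 values ran from 0.114 to 0.350 RPKM, with 0.176 and 0.114 RPKM in undifferentiated WT and 0.317 and 0.272 RPKM in differentiating WT libraries. The rise in WT passed the test (0.69, standard error 0.17, adjusted p = 0.0132), but not without the first differentiating WT library (adjusted p = 0.0588) or after quantile normalization (0.0880). KO libraries stood at 0.220 and 0.237 RPKM before and 0.316 and 0.350 RPKM after induction, a difference of 0.40 that did not pass (adjusted p = 0.0802). It passed without either undifferentiated WT library (adjusted p = 0.0402 and 0.0399) and under 3 other settings of the fit (0.0344 to 0.0466). In 12 of 17 alternatives the difference in KO MSCs still did not pass, and after quantile normalization it was only 0.03 (adjusted p = 0.873). The genotype differences of 0.43 before and 0.14 after induction did not pass either.

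*Jun* (chromosome 4, 95049034 to 95052222, minus strand, 1 exon), the founding member of its family, rose with induction in both genotypes. It was at 13.6 and 14.6 RPKM in undifferentiated WT and 17.4 and 18.0 RPKM in differentiating WT libraries, and at 13.2 and 12.9 RPKM in undifferentiated KO and 17.4 and 18.1 RPKM in differentiating KO libraries. The differentiating groups of the 2 genotypes overlapped almost completely. The log2 fold change with induction was 0.33 in WT (standard error 0.04, adjusted p = 0.00111) and 0.44 in KO MSCs (adjusted p = 0.000189), and the interaction of 0.11 (standard error 0.06) did not pass (adjusted p = 0.205). Between the genotypes *Jun* differed by -0.11 before (adjusted p = 0.116) and 0.01 after induction (adjusted p = 0.943), neither past the test. An antisense gene, *Junos*, overlaps *Jun* and is not in the table.

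*Junb* (chromosome 8, 84974484 to 84978718, minus strand), whose product acts with FOS family partners and can oppose JUN, was the most abundant Jun family RNA. Before induction WT libraries were at 69.0 and 72.8 RPKM, and those of KO cells at 55.4 and 56.0 RPKM. *Junb* was thus lower in undifferentiated KO MSCs, in both libraries (log2 fold change -0.35, standard error 0.05, adjusted p = 0.00376). After induction it was at 64.7 and 69.4 RPKM in WT and 72.9 and 74.8 RPKM in KO libraries, with the KO libraries now on the upper side. That difference of 0.14 did not pass (adjusted p = 0.0515), and passed after quantile normalization (adjusted p = 0.0194) and when genes with a group listed at 0 were left out (0.0475). *Junb* rose with induction in KO MSCs (0.41, adjusted p = 0.000287), while in WT the groups overlapped (-0.08, adjusted p = 0.166). The interaction was 0.49 (standard error 0.06, adjusted p = 0.00296). The gene overlaps *Prdx2* on the opposite strand.

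*Jund* (chromosome 8, 70698949 to 70700616, plus strand, 1 exon) is the Jun family member least dependent on stimulation. It was at 29.7 and 31.1 RPKM in WT before induction, 28.0 and 26.0 RPKM in KO before induction, 34.0 and 36.3 RPKM in WT after it, and 42.9 and 42.1 RPKM in KO libraries after it. Differentiating KO libraries were the highest and undifferentiated KO libraries the lowest. It rose with induction by 0.65 in KO (adjusted p = 6.09e-05) and by 0.21 in WT MSCs (adjusted p = 0.0127). The rise in WT was lost without the first undifferentiated (adjusted p = 0.0720) or the second differentiating WT library (0.0706), and with each library centred on its median (0.0962). *Jund* was higher in KO than in WT after induction (0.27, adjusted p = 0.0094), and the difference before induction was -0.17 (adjusted p = 0.0512), a value that passed under 5 other settings (adjusted p from 0.0296 to 0.0499). The interaction was 0.44 (standard error 0.07, adjusted p = 0.00598).

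*Egr1* (chromosome 18, 34859823 to 34864984, plus strand), a zinc finger factor induced with *Fos* by the same signals, was lower in KO MSCs in both states. Undifferentiated libraries were at 6.03 and 5.31 RPKM in WT and 2.17 and 2.48 RPKM in KO, and differentiating libraries at 9.14 and 7.99 RPKM in WT and 4.74 and 4.82 RPKM in KO. All 4 KO libraries lay below all 4 WT libraries. The genotypes differed by -1.25 on the log2 scale before (adjusted p = 0.000841) and -0.83 after induction (adjusted p = 0.00238), with KO levels at 0.420 and 0.564 of WT. *Egr1* rose with induction in WT (0.59, adjusted p = 0.00275) and in KO MSCs (1.01, adjusted p = 0.000165). The interaction of 0.43 did not pass (standard error 0.14, adjusted p = 0.0574), but did in 2 fits with fewer genes (0.0458 and 0.0491).

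Some RNA of leukocytes and macrophages differed between the groups along with *Fos* and *Egr1*. The 9 markers of these cells summed to 17.4 to 18.5 RPKM in WT before induction, 8.50 to 9.30 RPKM in KO before induction, 30.0 to 34.2 RPKM in WT after it, and 13.5 to 14.5 RPKM in KO libraries after it. The largest part of the sum was *Lyz2*, the lysozyme gene of myeloid cells, with group means of 13.1, 3.31, 24.7 and 7.24 RPKM in the same order, and 6 of the 9 were tested: 2 were lower and 2 higher in KO before induction, and 5 lower and 1 higher after it. With induction 5 of the 6 rose and 1 fell in WT, and 2 rose and 1 fell in KO MSCs. The shares of all tested genes that changed were 32.2% and 40.7% between the genotypes before and after induction. They were 64.4% and 72.9% with induction in WT and KO MSCs. *Cd14* was higher in KO MSCs before induction (0.78, adjusted p = 0.00463), where *Fos* and *Egr1* were lower. *Csf1r*, the receptor gene of macrophage growth factor, was higher there too (0.34, adjusted p = 0.0315), and fell with induction in both genotypes (-0.97, adjusted p = 0.00018; -2.06, adjusted p = 4.87e-06). The defining markers were close to 0, with *Ptprc* at 0.11 RPKM or less in the group means, *Adgre1* and *Itgam* at 0.32 RPKM or less, and *Cd3e* listed at 0. Their part in the differences of *Fos* and *Egr1* was not tested.

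*Atf3* (chromosome 1, 191170296 to 191218039, minus strand), a stress-induced factor that represses as well as activates, fell with induction. It was at 2.58 and 2.24 RPKM in undifferentiated WT and 0.672 and 0.614 RPKM in differentiating WT libraries, and at 1.15 and 0.932 RPKM in undifferentiated KO and 0.560 and 0.535 RPKM in differentiating KO libraries. Undifferentiated WT libraries stood well above the rest. The change was -1.76 on the log2 scale in WT (adjusted p = 6.5e-05) and -0.81 in KO MSCs (adjusted p = 0.00127), and the interaction of 0.95 passed (standard error 0.17, adjusted p = 0.00859). *Atf3* was lower in KO than in WT before induction (-1.14, adjusted p = 0.0021). After induction the difference of -0.20 did not pass (adjusted p = 0.248), with both groups at low levels.

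*Ier3* (chromosome 17, 35821684 to 35822923, plus strand), a short-lived regulator of survival and of NF-κB signals, fell with induction in both genotypes. It went from 102 and 111 RPKM to 27.3 and 29.0 RPKM in WT and from 82.1 and 83.2 RPKM to 23.3 and 22.5 RPKM in KO libraries. The undifferentiated libraries of both genotypes were far above the differentiating libraries, and KO lay below WT within each state. Its log2 fold change with induction was -1.91 in WT (standard error 0.05, adjusted p = 1.97e-06) and -1.85 in KO MSCs (adjusted p = 1.15e-06), and the interaction of 0.07 did not pass (adjusted p = 0.502). KO differed from WT by -0.36 before (adjusted p = 0.00465) and -0.30 after induction (adjusted p = 0.00685).

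Counted over the 10 genes, *Dnmt3l* KO against WT in undifferentiated MSCs gave 1 gene higher (*Fosl1*), 5 lower (*Fos*, *Junb*, *Egr1*, *Atf3* and *Ier3*) and 4 that did not pass. Of all 15342 tested genes, 14.7% were higher and 17.5% lower in this comparison. *Fos*, *Egr1* and *Atf3* also passed the 2-fold limit that defines a differentially expressed gene (DEG) in the study, which 1.70% of all genes did in either direction. *Atf3* did not with a pseudocount of 1 (-0.74). The median log2 fold change was -0.26 over the 10 genes and 0.00 over all genes.

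In differentiating MSCs 2 of the 10 genes (*Fosl2* and *Jund*) were higher and 4 (*Fos*, *Fosl1*, *Egr1* and *Ier3*) lower in KO than in WT, beside 17.8% and 22.9% of all genes. None of the 10 passed the 2-fold limit, which 3.30% of all genes did. The number called was between 4 and 7 over the alternatives, with the lowest without the second differentiating WT library. The median over the 10 genes was -0.10, and over all genes -0.01.

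With induction in WT MSCs 6 of the 10 genes rose (*Fos*, *Fosb*, *Fosl2*, *Jun*, *Jund* and *Egr1*), 3 fell (*Fosl1*, *Atf3* and *Ier3*) and *Junb* did not pass, beside 31.6% of all genes that rose and 32.8% that fell. *Atf3* and *Ier3* passed the 2-fold limit, as 14.3% of all genes did. Centring each library on its median moved the median of all tested genes in this comparison from 0.00 to -0.10. With this scaling 4 of the 10 genes rose and 4 fell, since *Fosl2* and *Jund* no longer passed and *Junb* passed as lower (-0.18, adjusted p = 0.0154), beside 26.2% of all genes that rose and 40.1% that fell. In KO MSCs 6 rose (*Fos*, *Fosl2*, *Jun*, *Junb*, *Jund* and *Egr1*), 3 fell (*Fosl1*, *Atf3* and *Ier3*), and *Fosb* did not pass. Here 36.4% of all genes rose and 36.6% fell, and 4 of the 10 (*Fos* and *Egr1* upward, *Fosl1* and *Ier3* downward) passed the 2-fold limit that 22.9% of all genes passed. *Egr1* was just past it (1.01) and below it with quantile normalization (0.87), median centring (0.93), a pseudocount of 1 (0.80) or without the first undifferentiated KO library (0.92), and *Atf3* passed it after quantile normalization (-1.12). The 2 inductions share no library, while each shares libraries with the genotype comparisons.

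The genotype difference itself changed with induction for 5 of the 10 genes, upward for *Fos*, *Junb*, *Jund* and *Atf3* and downward for *Fosl1*. Of all genes, 19.4% changed upward and 20.0% downward by this test. *Fos* and *Fosl1* did so by more than 2-fold, as did 6.17% of all genes. *Fosl1* did not with a pseudocount of 1 (-0.75), and *Atf3* did when 1 of 3 libraries was left out: the second undifferentiated WT (1.04), the first differentiating WT (1.003) or the first undifferentiated KO library (1.08). For *Fos* and *Atf3* the upward interaction came with a KO level below WT that was nearer to WT after induction. For *Jund* it came with a KO level above WT after induction. For *Fosl1* the sign turned from higher to lower in KO MSCs.

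**Figure D2:**
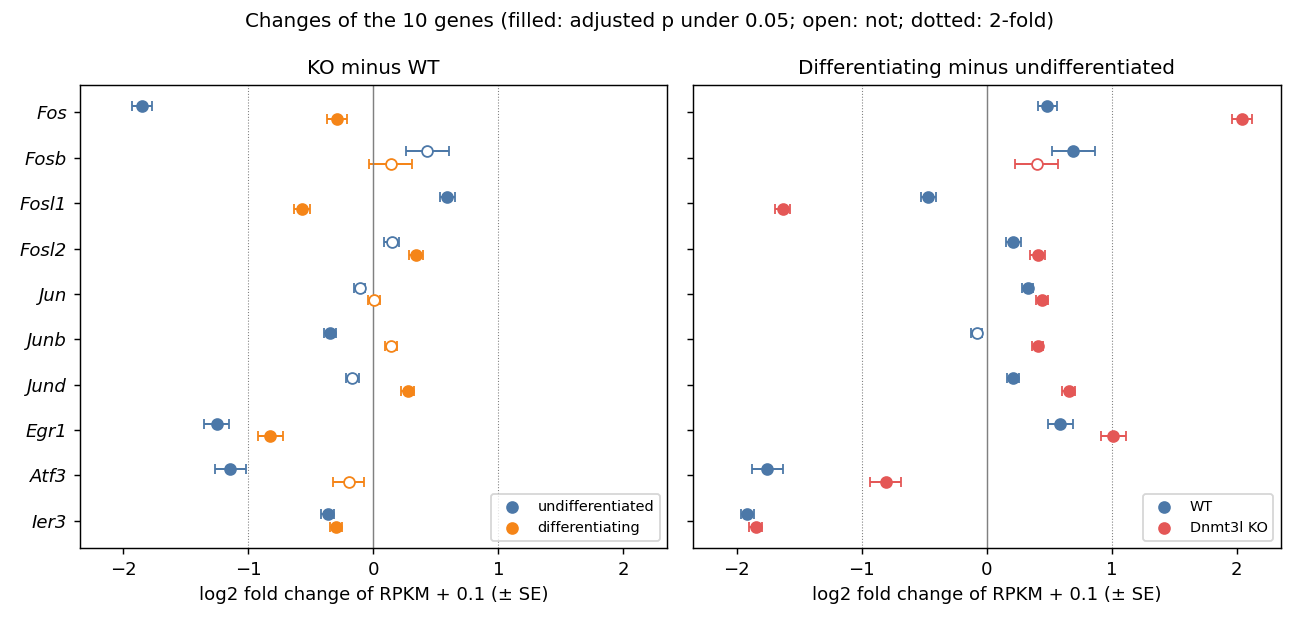
Log2 fold changes of RPKM + 0.1 with standard errors for the 10 genes, as KO minus WT (left; undifferentiated in blue, differentiating in orange) and as differentiating minus undifferentiated (right; WT in blue, *Dnmt3l* KO in red); filled points have an adjusted p under 0.05 and dotted lines mark 2-fold. *Fos* lies at -1.85 before and -0.29 after induction on the left, and *Fosl1* lies on opposite sides of 0 in the 2 states.

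Undifferentiated KO MSCs stood apart in the make-up of Fos family RNA. *Fos* was 24.9% and 26.7% of the summed Fos family RPKM in undifferentiated WT, 28.6% and 31.3% in differentiating WT and 22.6% and 21.0% in differentiating KO libraries, but 7.14% and 8.37% in undifferentiated KO libraries. *Fosl2* took most of the remainder, with 85.3% to 86.7% in undifferentiated KO libraries against 66.3% to 77.4% in the other 6. *Fosl1* made up 5.70% and 5.81% in undifferentiated KO libraries and 1.09% to 3.53% elsewhere, and *Fosb* at most 0.491% in any library. The family sum was 53.8 ± 0.665 RPKM in undifferentiated WT, 48.8 ± 0.856 in undifferentiated KO, 65.0 ± 0.426 in differentiating WT and 72.9 ± 4.67 in differentiating KO MSCs (SD, n = 2 each).

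In the Jun family *Junb* was 54.7% to 61.5% of its sum, *Jund* 26.2% to 32.2% and *Jun* 12.1% to 15.0% over the 8 libraries. The sum was lowest in undifferentiated KO (95.7 ± 1.16 RPKM) and highest in differentiating KO MSCs (134 ± 1.34), with WT at 115 ± 4.34 before and 119.9 ± 5.39 after induction (SD, n = 2 each). Jun family RNA exceeded Fos family RNA in every library, by a ratio of 1.77 to 2.18. No test was made of these shares and sums, which describe RNA and not protein. The RPKM of all genes also summed lowest in undifferentiated KO and highest in differentiating KO libraries, and its part in the family sums was not tested.

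**Figure D3:**
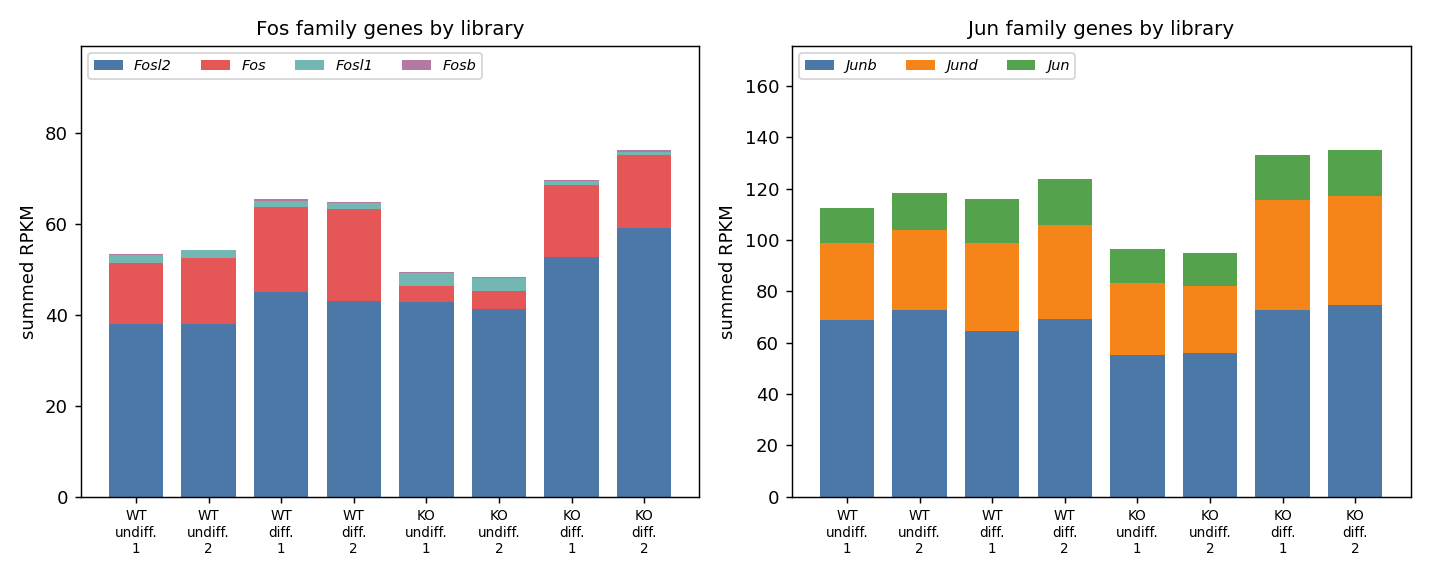
Summed RPKM of the Fos family (left) and the Jun family (right) in each library, stacked by gene from a baseline of 0. The *Fos* share of undifferentiated KO libraries is the smallest (7.14% and 8.37%), while *Fosl2* is the largest block of the Fos family in every library.

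Likeness of pattern was measured by Pearson's r of log2(RPKM + 0.1) over the 8 libraries, which are only 4 groups of 2, so that values near 1 are common among 11974 candidate genes. The genes most like *Fos* were *Cdkn2b* (r = 0.99), *Sardh* (0.99) and *Rpl22l1* (0.98). *Cask* was nearest to *Egr1*, *4931406P16Rik* to *Atf3*, *Chac1* to *Ier3*, *Edn1* to *Junb*, *Rit1* to *Jund*, *Fech* to *Jun*, *Whsc1* to *Fosl1*, *A430033K04Rik* to *Fosl2* and *Npff* to *Fosb*, with r of 0.99 or more in each case. Among the 10 genes themselves, *Egr1* and *Fos* were the most alike (r = 0.93) and *Fosl1* and *Jund* the most opposed (r = -0.98).

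The genes around the 10 in the pathway were read from 6 lists. The counts below stand beside those of all tested genes, of which 14.7% were higher and 17.5% lower in undifferentiated KO MSCs. With induction 31.6% of all tested genes rose and 32.8% fell in WT, and 36.4% rose and 36.6% fell in KO MSCs. Of 23 genes for kinases and factors that act upstream, 3 were higher and 4 lower in undifferentiated KO MSCs and 16 did not pass, with a median of 0.00. *Map2k1*, the gene of the kinase MEK1, was lower in KO (-0.46, adjusted p = 6.0e-04) and *Mkl1*, which codes for a partner of serum response factor, higher (0.67, adjusted p = 0.00112). With induction 7 rose and 11 fell in WT and 4 rose and 11 fell in KO MSCs, with medians of -0.14 and -0.21. The gene of serum response factor itself, *Srf*, fell from 17.4 ± 0.499 to 8.39 ± 0.422 RPKM in WT and from 17.7 ± 0.910 to 7.71 ± 0.553 RPKM in KO MSCs (SD, n = 2 each), past the 2-fold limit in both (-1.05, adjusted p = 4.61e-05; -1.19, adjusted p = 1.49e-05).

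Of 10 tested genes in a list of 13 other AP-1 and small Maf factors, 2 were lower in undifferentiated KO MSCs, *Jdp2* (-0.36, adjusted p = 0.00387) and *Atf4* (-0.25, adjusted p = 0.0407), and 0 were higher. With induction 3 rose and 4 fell in WT, and 6 rose and 3 fell in KO MSCs. *Atf4*, the translation-controlled stress factor, had the largest level and fell from 266 ± 4.15 to 99.6 ± 5.28 RPKM in WT (SD, n = 2 each; -1.42, adjusted p = 1.54e-05).

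Other immediate early transcription factors numbered 22 tested of 23, in a list that also holds *Arc*, whose product is not a transcription factor, and the corepressor genes *Nab1* and *Nab2*. In undifferentiated KO MSCs 5 were higher and 6 lower, with a median of -0.01. The only one past the 2-fold limit was *Egr2*, a relative of *Egr1*, at 6.65 ± 0.0554 RPKM in WT and 1.80 ± 0.0311 in KO (SD, n = 2 each), both KO libraries below both WT libraries (-1.83, adjusted p = 0.000105). *Ier5l* was higher in undifferentiated KO MSCs (0.74, adjusted p = 0.000617), and *Ier2*, a small serum-induced factor, was lower (-0.69, adjusted p = 0.0014). With induction *Egr2* fell by 1.62 in WT (adjusted p = 7.58e-06), whereas *Egr1* rose. In all, 10 of the list rose and 10 fell in WT, and 7 rose and 12 fell in KO MSCs. *Hes1*, a Notch target, fell by 1.71 in WT (adjusted p = 8.01e-05) and by 2.94 in KO MSCs (adjusted p = 5.12e-06), and *Cebpd*, which glucocorticoids are known to induce, rose by 1.34 (adjusted p = 1.32e-06) and 1.81 (adjusted p = 2.77e-07).

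Inducible feedback and RNA decay genes numbered 26 tested of 27, of which 3 were higher and 9 lower in undifferentiated KO MSCs (median -0.11). Past the 2-fold limit were *Spry1*, an inhibitor of receptor kinase signals (27.2 ± 0.580 RPKM in WT, 12.2 ± 0.395 in KO, SD, n = 2 each; -1.15, adjusted p = 5.58e-05), and *Gadd45a*, a stress gene (-1.13, adjusted p = 0.000726). With induction 13 rose and 11 fell in WT, of which 5 and 7 passed the 2-fold limit. In KO MSCs 11 rose and 13 fell, of which 7 and 5 passed it. *Gadd45a* had the largest fall in WT (-2.37, adjusted p = 5.06e-06) and fell less in KO MSCs (-0.76, adjusted p = 0.000322). The largest fall in KO MSCs was that of *Dusp8* (-2.03, adjusted p = 5.68e-06), which also fell in WT (-1.49, adjusted p = 3.44e-05). *Rgs2*, which limits signals from G protein coupled receptors, rose by 2.74 in WT (adjusted p = 1.46e-06) and 3.94 in KO MSCs (adjusted p = 2.69e-07). *Errfi1*, an inhibitor of EGF receptor, rose by 1.46 (adjusted p = 2.33e-06) and 2.34 (adjusted p = 2.84e-07), and *Sgk1*, a kinase gene known to respond to glucocorticoids, had the largest level, at 230 ± 7.68 RPKM before and 412 ± 2.42 RPKM after induction in WT (SD, n = 2 each).

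Secreted and surface products of the immediate early response, listed together with the intracellular enzyme gene *Ptgs2*, numbered 15. In undifferentiated KO MSCs 3 were higher and 3 lower, with *Edn1* (-1.19, adjusted p = 0.000569) and *Lif* (-1.18, adjusted p = 0.00145) past the 2-fold limit. With induction 0 of the 15 rose and 13 fell in WT, 12 of them past the limit, with a median of -1.87. In KO MSCs 2 rose and 13 fell, with a median of -2.47. One that is called as rising is *Thbs1*, which is listed at 0 in 6 libraries and at 1029 and 970 RPKM in the 2 differentiating KO libraries, so that no fold is given. In all, 50 genes were listed at 0 in both libraries of a group and at 20 RPKM or more in both of another. Whether such zeros are missing values cannot be told from the deposited values. Without *Thbs1* the medians were -1.95 and -2.70, and the other gene that rose was *Edn1*. *Ptgs2*, the inducible cyclooxygenase gene, fell from 147 ± 5.59 to 6.24 ± 0.543 RPKM in WT (-4.54, adjusted p = 5.87e-06) and from 184 ± 0.736 to 2.24 ± 0.630 RPKM in KO MSCs (-6.32, adjusted p = 1.1e-06; SD, n = 2 each). *Il6* fell by 3.89 in WT (adjusted p = 5.26e-05) and 3.92 in KO MSCs (adjusted p = 2.86e-05).

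Genes long described as AP-1 targets numbered 16 tested of 18. In undifferentiated KO MSCs 5 were higher and 4 lower, with a median of 0.01. The 3 past the 2-fold limit were all lower: *Mmp13*, collagenase 3 (45.6 ± 1.25 RPKM in WT, 21.0 ± 2.78 in KO, SD, n = 2 each; -1.12, adjusted p = 0.00106), *Ibsp*, bone sialoprotein (-1.33, adjusted p = 0.000726), and *Bglap*, osteocalcin, which was at 0.576 RPKM or less in the group means (-1.49, adjusted p = 0.0349). With induction 8 rose and 7 fell in WT, of which 5 and 4 passed the 2-fold limit. In KO MSCs 6 rose and 7 fell, of which 5 and 5 passed it. *Nqo1* had the largest fall in WT (-2.19, adjusted p = 2.69e-06) and in KO MSCs (-2.95, adjusted p = 5.47e-07). *Mmp13* rose by 2.33 (adjusted p = 7.69e-06) and 3.06 (adjusted p = 1.68e-06), *Ibsp* by 3.78 (adjusted p = 2.01e-06) and 4.11 (adjusted p = 7.6e-07), and *Mgp*, matrix Gla protein, by 2.73 in both genotypes (adjusted p = 6.4e-07 and 3.17e-07). *Ibsp* and *Bglap* are also markers of osteoblasts.

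**Figure D4:**
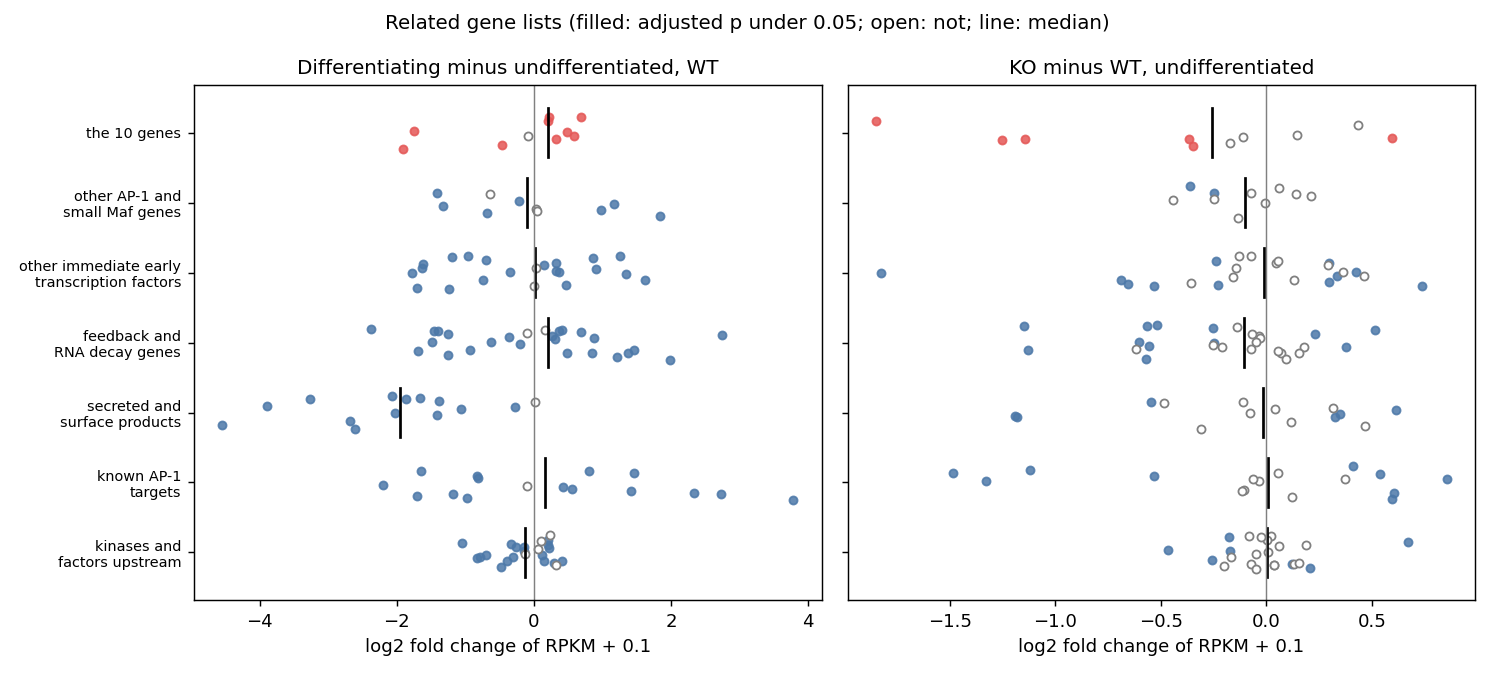
Log2 fold changes of RPKM + 0.1 for the 10 genes (red) and the 6 related lists (blue), for differentiating minus undifferentiated WT MSCs (left) and for KO minus WT in undifferentiated MSCs (right); filled points have an adjusted p under 0.05, bars are medians, vertical jitter has no meaning, and *Thbs1* is left out because it is listed at 0 in these groups. With induction in WT 13 genes of the list of secreted and surface products, *Ptgs2* included, lie below 0. In the genotype comparison the medians of all 6 related lists lie between -0.11 and 0.01.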

How the data were processed

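Gene expression was read from 8 libraries of MSCs, 2 for each combination of genotype and state. Per the labels and the study's methods, total RNA was depleted of ribosomal RNA, made into stranded libraries, sequenced as single reads and aligned by strand to mm10 with TopHat2 2.1.0; the submitters' processing notes also name Cuffdiff and Cufflinks 2.2.1. The authors deposited the result as RPKM per gene, which removes read number, and splits reads between overlapping genes in a way not given in the sources used here. Of the 24346 genes 4324 were at 0 in all libraries. Library columns were assigned to samples by their labels, and 0 columns of per-sample values were left without a sample.

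From these, log2(RPKM + 0.1) was computed, and the 15342 genes that averaged 0.1 RPKM or more over the libraries were tested. The pseudocount lowers the fold changes of low genes, *Fosb*, *Atf3* and *Fosl1* here. The means of the 4 groups were estimated in limma 3.58.1 (R 4.3.3) with a variance trend and Benjamini-Hochberg adjustment over all tested genes, and 5 contrasts were read: KO against WT in each state, induction in each genotype, and their interaction. A gene was called where the adjusted p was under 0.05, and was a DEG where also the absolute log2 fold change was above 1. With 2 libraries a group the fit had 4 residual degrees of freedom, so all groups shared an estimate of the spread. The fit was tested on simulated data before use. Whole reads could be recovered for too few low values (70.9% to 72.2% within 0.05 reads, where 10.0% would be so at random positions), so no count test was run and read numbers are estimates.

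The 10 genes, the 6 related lists and the marker lists were chosen with earlier results of these data known; of each related list at most 3 genes with the largest called changes in a comparison and 2 with the highest mean were named, and for likeness the 3 genes with the highest r. Some genes of these lists are not reported here. Positions came from GENCODE vM21 (mm10). In all, 17 alternatives in pseudocount, expression minimum, scaling, model and libraries were run, and 1, leaving out genes listed at 0 in a group, was added after seeing the data. Figures were drawn with matplotlib 3.10.9 in Python 3.11.15.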

Additional observations from a re-analysis of the deposited data

Results flagged for a closer look

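For 5 of the 10 genes the difference between *Dnmt3l* KO and WT was not the same before and after induction by the test of the interaction (limma with Benjamini-Hochberg adjustment over 15342 genes, adjusted p under 0.05). Of all genes, 39.4% passed this test. On the log2(RPKM + 0.1) scale the genotype difference moved by 1.56 for *Fos*, 0.95 for *Atf3*, 0.49 for *Junb* and 0.44 for *Jund*, all upward in KO MSCs, and by -1.16 for *Fosl1*. All 5 passed under each of the 17 alternatives that could give an interaction. No single sample was tested for standing apart, since every group holds 2 libraries.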

How the results depend on the processing

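The number of the 10 genes called stayed within 1.5 times its value in every comparison: 6 to 7 for KO against WT in undifferentiated and 4 to 7 in differentiating MSCs, 7 to 9 for induction in WT, 9 to 10 in KO, and 5 to 6 for the interaction. Of 885 values of single genes under alternatives, 847 kept their direction and their side of the threshold, 20 came to pass, 15 ceased to pass and 3 changed sign. The sign changed only for values that did not pass: *Junb* with induction in WT, 0.0215 after quantile normalization, and *Jun* for KO against WT in differentiating MSCs, where leaving out 1 library at a time gave -0.0234 to 0.034. *Fosb* has no value with a minimum of 0.5 RPKM. Leaving out 1 library at a time, the numbers of the 10 genes called were 6 to 7 and 4 to 6 for the genotype comparisons, 7 to 9 and 9 to 10 for the inductions, and 5 to 6 for the interaction.

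The labels give the groups the same replicate numbers. Over 12269 genes the deviations of same-numbered libraries correlated between -0.094 and 0.035, so the numbers were not taken as pairing. With a replicate block 6, 7, 9, 9 and 5 of the 10 genes were called in the 5 comparisons, *Junb* being added for KO against WT in differentiating MSCs (0.14, adjusted p = 0.0364, limma), and the block changed no other call.

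Counts over all genes moved more. DEGs of KO against WT in undifferentiated MSCs were 261, and 402 with a pseudocount of 0.01 or 99 with 1. With a pseudocount of 1 they were 234 in place of 507 in differentiating MSCs, 1249 in place of 2198 and 2267 in place of 3511 with induction in WT and KO, and 479 in place of 947 for the interaction. Genes changed between the genotypes in undifferentiated MSCs were 4943, and 2289 to 2906 without an undifferentiated library. In differentiating MSCs they were 6251, 3037 when only those 4 libraries were fitted and 3096 without the second WT library. Low depth limits *Fosb* most.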
